A study of Mus musculus with 16 samples.

Results

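The 10 genes described here belong to insulin and insulin-like growth factor (IGF) signaling and were chosen by symbol from the count files: the ligands *Igf1* and *Igf2*, the receptors *Insr* and *Igf1r*, the adaptors *Irs1* and *Irs2*, and the binding proteins *Igfbp2*, *Igfbp3*, *Igfbp4* and *Igfbp5*. All 10 were among the 48397 gene symbols counted in every library, and all 10 passed the low-count filter that left 17038 genes to test. Without regard to the replicate numbers in the sample labels, edgeR called none of the 10 at an adjusted p of 0.05 in any comparison. DESeq2 called 1, *Igf1r* with apoE4, where it called 0.534% of the genes to which it gave an adjusted p. Once the number was a term of the edgeR fit, *Igf1r* passed with apoE4, *Irs2*, *Igfbp2*, *Igfbp3* and *Igfbp5* passed with apoE3 and *Igfbp4* passed with apoE2, all higher than in the control neurons. In that fit *Igfbp4* was also lower with apoE4 than with apoE2 or apoE3, comparisons in which 4.44 and 1.76% of all tested genes were called. The number raised the share of all tested genes that edgeR called from 0.194 to 3.30% with apoE4, from 0.00587 to 11.7% with apoE3 and from 0.00 to 1.73% with apoE2. The call of *Igfbp4* with apoE2 lay at the threshold (adjusted p of 0.0491). Those of *Igf1r*, *Irs2*, *Igfbp3* and *Igfbp5* against the control were each lost when certain single libraries were left out. In the comparison with apoE3, 7 of 8 astrocyte markers were called higher as well, and with apoE4 4 of 8 were.

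Insulin and the IGFs are secreted peptides that bind receptor tyrosine kinases on the cell surface. The activated receptors phosphorylate the adaptors *Irs1* and *Irs2*, which recruit phosphatidylinositol 3-kinase (PI3K) and through it AKT, mTOR and the FOXO transcription factors. The IGF binding proteins are secreted carriers that hold IGFs outside the cell and set how much of them can reach a receptor. In the brain the pathway is known for its part in neuronal survival, neurite growth and synaptic plasticity, and astrocytes are a known source of several of the binding proteins.

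The study treated primary hippocampal neurons from newborn wild-type CD1 mice with astrocyte medium and sequenced their RNA. The media came from immortalized astrocyte lines, in which the mouse gene was replaced by human *APOE* ε2, ε3 or ε4 in both copies (the apoE2, apoE3 and apoE4 groups) or was missing (*Apoe*-/-, the control group). Neurons of all 4 groups carried their own *Apoe*, received AraC against dividing cells, and were given 10-fold concentrated medium at 10 and 13 days in vitro (DIV) before RNA was taken at 17 DIV. Each group has 4 libraries, numbered 1 to 4 in the labels, so that each isoform stands on the medium of a line of cells and the line and the isoform cannot be told apart. All groups grew in Neurobasal medium with B-27, a supplement that contains insulin. The astrocyte lines of all groups conditioned a serum-free medium that held N-2 supplement and a hydroxycholesterol, the latter meant to raise apoE output.

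The libraries held between 14087723 and 34248172 reads counted on genes, with a median of 22221832. Reads on no single gene made up 38.4 to 73.7% of a library, and *Lars2* took 0.359 to 15.02% of the gene counts. Neuronal markers were abundant in every library, with *Map2* at 1150 to 3112 CPM (counts per 1000000 reads on genes, scaled by TMM) and 8 neuronal markers summing to 3297 to 7678 CPM. Markers of astrocytes were present throughout as well. The 8 astrocyte markers summed to 1286 to 2735 CPM in the control, 1153 to 2641 in the apoE2, 1532 to 5584 in the apoE3 and 1432 to 4669 in the apoE4 libraries, with *Gfap* the most abundant at 189 to 3449 CPM and none of the 8 at 0 in any library. In such bulk RNA, fewer cells of a type and less RNA per cell cannot be told apart.

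Libraries that shared a replicate number resembled each other, and for most of these genes the number set the level more than the medium did. A test of the replicate number passed an adjusted p of 0.05 for 9 of the 10 genes (edgeR's quasi-likelihood test, Benjamini-Hochberg adjusted), against 63.8% of all tested genes. *Igf1r* was the exception, with an adjusted p of 0.405 in the same edgeR test. Between numbers lay 87.0% of the variance of log2 CPM for *Igfbp5*, 84.5% for *Igf1*, 82.3% for *Irs1*, 82.2% for *Igfbp3* and 81.5% for *Igfbp2*, against a median of 56.1% over all tested genes. For *Igf1r* the share was 8.97%, and 63.1% lay between the media, against a median of 14.4% over all genes. Because the number carried so much of the spread, the values of the 10 genes below are given with and without it where the call differs. Leaving it out compares the groups against the whole spread of their 4 libraries, and including it compares libraries of the same number.

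**Figure D1:**
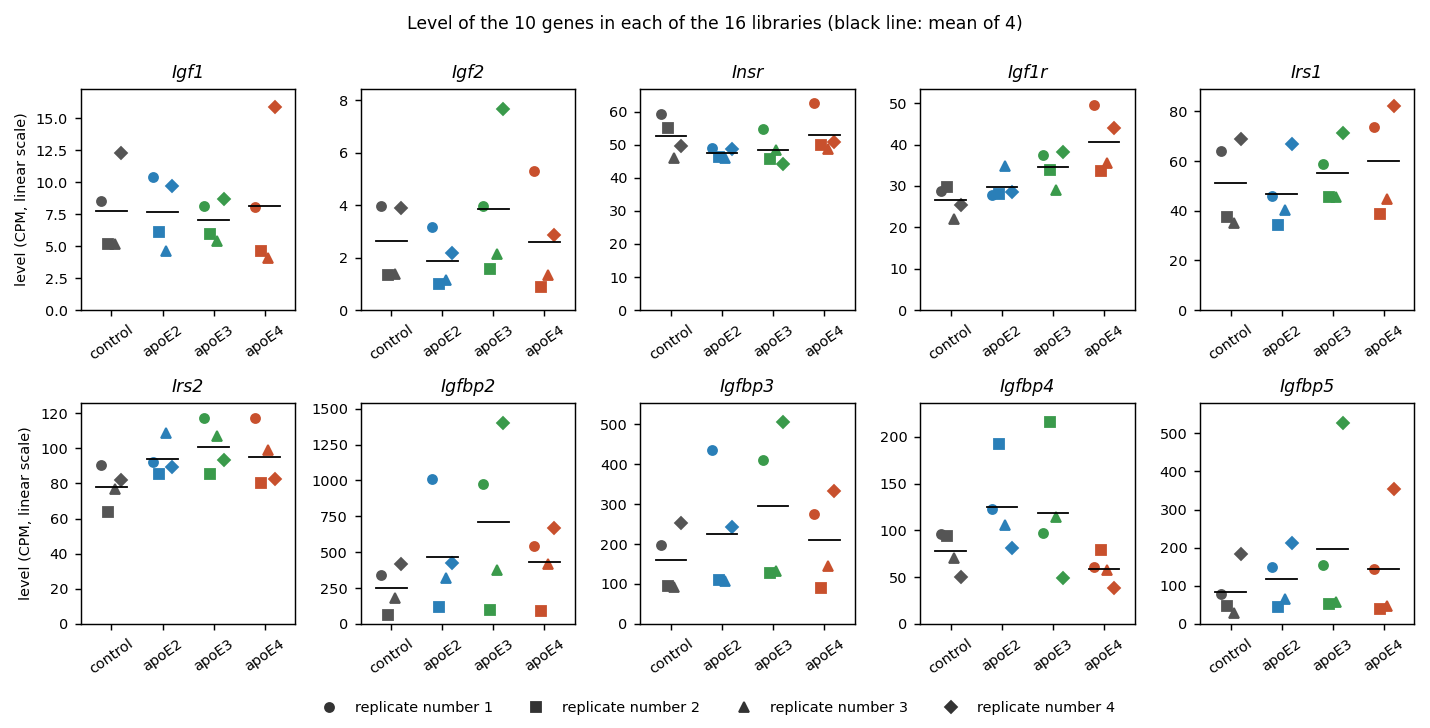
Level of each of the 10 genes in CPM (linear axis from 0) in the 16 libraries, by group, with 1 point per library, the symbol marking the replicate number and the line marking the mean of 4. *Igf1r* in the 4 apoE4 libraries sits between 33.6 and 49.5 CPM, above the control libraries at 22.1 to 29.7, while in *Igfbp2*, *Igfbp3* and *Igfbp5* the libraries of numbers 1 and 4 sit above those of numbers 2 and 3 in every group.

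Per length of transcript, the binding proteins were the most abundant and the ligands the least. In TPM, counts per exon length scaled to sum to 1000000 in each library and averaged over the 16 libraries, *Igfbp2* stood at 598, *Igfbp3* at 174, *Igfbp5* at 57.3 and *Igfbp4* at 56.8. The adaptors followed with *Irs2* at 37.3 and *Irs1* at 15.1 TPM, then the receptors with *Insr* at 9.51 and *Igf1r* at 5.04 TPM, and last *Igf1* at 2.00 and *Igf2* at 1.17 TPM. Neighbours in this order overlapped in their ranges over libraries, except *Irs2*, at 26.3 to 49.5 TPM, and *Irs1*, at 9.07 to 25.6 TPM. *Igfbp4* ranged from 24.3 to 139.5 TPM and *Igfbp5* from 14.5 to 207 TPM, so that their order is not fixed by these libraries. Insulin itself was hardly counted, with 0 counts of *Ins1* and 12 of *Ins2* over the 16 libraries together. A count of 0 in a single library allows a level of up to 0.0762 to 0.228 CPM, the level of 3 counts at its depth, which covers counting error only.

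The ligands were the RNAs of the 10 with the fewest counts, and edgeR called neither in any comparison, with or without the number. *Igf1*, the main mediator of growth hormone action and a product of microglia in the young brain, was at 8.50, 5.15, 5.17 and 12.3 CPM in control libraries 1 to 4, at 10.4, 6.08, 4.60 and 9.69 with apoE2, at 8.15, 5.99, 5.37 and 8.66 with apoE3 and at 8.07, 4.62, 4.10 and 15.9 with apoE4. Numbers 1 and 4 were higher than numbers 2 and 3 in each group, and the 4 groups overlapped throughout. The medium held 0.369% of its variance, the smallest share of the 10. Log2 fold changes against the control were 0.07 ± 0.42 (SE) with apoE4, -0.14 ± 0.42 with apoE3 and -0.02 ± 0.42 with apoE2. An effect of this size with such an error does not show that the media act alike on *Igf1*.

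*Igf2*, a fetal growth factor whose RNA is made by meninges and choroid plexus in the brain, rested on 24 to 117 counts a library. Its level was 3.955, 1.33, 1.36 and 3.875 CPM in control libraries 1 to 4, 3.17, 0.994, 1.15 and 2.16 with apoE2, 3.961, 1.56, 2.13 and 7.68 with apoE3 and 5.29, 0.884, 1.33 and 2.85 with apoE4. Every apoE2 library was below and every apoE3 library above the control library of its number, although for apoE3 number 1 by as little as 3.961 against 3.955 CPM. Between apoE3 and apoE2 the log2 fold change was 1.04 ± 0.64, with an adjusted p of 1.00 without and 0.0728 with the number in edgeR. DESeq2 with the number called this difference, at 1.00 with an adjusted p of 0.0139. Over fits without 1 library the edgeR value without the number ran from 0.46, without apoE3 library 4, to 1.40, without apoE2 library 1. In the annotation 62.8% of its exon length is shared with *Gm49394*, an annotated gene of the same strand that is not among the counted symbols.

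Of the receptors, *Igf1r* was higher with apoE4 than in the control and *Insr* was not distinguishable between groups. *Igf1r*, the receptor that binds *Igf1* most tightly, lies at chr7:67952827-68233668 on the plus strand (GRCm38, GENCODE M21). It stood at 28.8, 29.7, 22.1 and 25.45 CPM in control libraries 1 to 4, at 27.8, 28.2, 34.7 and 28.6 with apoE2, at 37.55, 33.95, 29.0 and 38.1 with apoE3 and at 49.5, 33.6, 35.65 and 44.0 with apoE4. All apoE4 libraries lay above all control libraries, while the apoE2 and apoE3 libraries overlapped the control range. This gap held in CPM and not in TPM, where the apoE4 libraries at 4.49 to 7.33 overlapped the control libraries at 3.58 to 5.25. Of the 10 genes it was the 1 with such a gap above the control for apoE4, where 1.34% of all tested genes had it. No member had it for apoE2, where 1.14% of genes did, or for apoE3, where 1.40% did.

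The mean of *Igf1r* was 26.5 ± 3.50 CPM (SD, n = 4) in the control, 29.8 ± 3.31 with apoE2, 34.7 ± 4.21 with apoE3 and 40.7 ± 7.39 with apoE4. Against the control, the log2 fold change with apoE4 was 0.62 ± 0.14 (SE), a 1.53-fold difference. Its unadjusted p was 0.000658 and its adjusted p 0.163 in edgeR without the number. With the number the value was 0.61 ± 0.13 and the adjusted p 0.0153. That call was lost when control library 1, 3 or 4 or apoE4 library 1 or 4 was left out, with adjusted p-values of up to 0.0751, and over all 16 fits that left out a library the log2 fold change lay between 0.52 and 0.71. With apoE3 the log2 fold change was 0.39 ± 0.14 with an adjusted p of 0.745, or 0.0664 with the number, and with apoE2 it was 0.17 ± 0.14 with an adjusted p of 1.00, or 0.608 with the number. Between apoE4 and apoE2 it was 0.45 ± 0.14 (adjusted p of 0.430, or 0.0758 with the number, edgeR), and between apoE4 and apoE3 0.23 ± 0.14 (adjusted p of 1.00, or 0.401 with the number, edgeR). In edgeR the higher level with apoE4 is thus called against the control alone, whereas DESeq2 with the number also called it against apoE2, at 0.43 with an adjusted p of 0.0339. DESeq2 without the number called *Igf1r* against the control (adjusted p of 0.0139), as it did 0.534% of the genes to which it gave an adjusted p.

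Markers of several other cell types lay in the same direction as *Igf1r*. With apoE4, 8 of 8 astrocyte markers were higher than in the control, with a median log2 fold change of 0.717, and 4 of them passed an adjusted p of 0.05 with the number. Higher as well were 6 of 6 markers of dividing cells (median 0.743, none passing), 6 of 6 tested fibroblast markers (median 0.678, 1 passing) and 7 of 8 of the oligodendrocyte lineage (median 0.467, 1 passing), while 0 of 8 neuronal markers were (median -0.072). In the other lists, 6 of 8 microglia markers (median 0.132), 3 of 4 tested mural (0.529, 1 passing), 2 of 3 tested endothelial (0.094, 1 passing) and 1 of 5 tested choroid plexus markers (-0.019) were higher. Among all tested genes 50.4% were higher with apoE4 and 3.30% passed with the number in either direction. Over the 16 libraries, which share numbers and media, *Igf1r* correlated with the summed astrocyte markers at a Pearson r of 0.467 on the log2 scale and with the fibroblast markers at 0.435. The r was 0.353 with the oligodendrocyte lineage markers, 0.341 with those of microglia and -0.374 with the neuronal markers. The part of these cells in the level of *Igf1r* was not tested.

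*Insr*, the insulin receptor, lies at chr8:3122061-3279617 on the minus strand. Its level ran from 46.1 to 59.2 CPM in the control, from 46.1 to 48.9 with apoE2, from 44.2 to 54.8 with apoE3 and from 48.8 to 62.7 with apoE4. It was the steadiest of the 10 genes, with a highest library 1.42 times the lowest, against 2.24 times for *Igf1r*. Against the control its log2 fold change was 0.01 ± 0.10 with apoE4, -0.12 ± 0.10 with apoE3 and -0.15 ± 0.10 with apoE2, each with an edgeR adjusted p of 0.812 or more without the number and 0.321 or more with it.

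Because the receptors form hybrids with each other, their ratio in TPM was computed for each library, after the CPM values had been seen. The ratio of *Igf1r* to *Insr* was 0.398, 0.442, 0.392 and 0.420 in control libraries 1 to 4. It was 0.465, 0.498, 0.617 and 0.480 with apoE2, 0.561, 0.610, 0.490 and 0.706 with apoE3 and 0.646, 0.552, 0.598 and 0.707 with apoE4. Each of the 12 libraries of an apoE group lay above each of the 4 control libraries, while the 3 apoE groups overlapped. As a ratio of genes chosen with their values known it is a description and was given no test. How often ratios of other genes separate the libraries in this way was not computed.

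The adaptors passed no test without the number, and with it only *Irs2* did, with apoE3. *Irs2*, an adaptor abundant in brain and in the cells that make insulin, lies at chr8:10984681-11008458 on the minus strand. It stood at 90.6, 63.55, 77.0 and 81.9 CPM in control libraries 1 to 4, at 92.4, 85.2, 108.9 and 89.2 with apoE2, at 117, 85.4, 107 and 93.6 with apoE3 and at 117, 80.5, 99.2 and 82.8 with apoE4. Every library of the 3 apoE groups was above the control library of its number, although the groups overlapped. Against the control the log2 fold change was highest with apoE3, at 0.37 ± 0.14, and stood at 0.26 ± 0.14 for apoE2 and 0.28 ± 0.14 for apoE4. For apoE3 the edgeR adjusted p was 0.757 without and 0.0138 with the number, and for apoE2 and apoE4 it was 0.134 and 0.107 with the number. The call with apoE3 was lost without control library 3 or without apoE3 library 1, at an adjusted p of up to 0.0552. Between the isoforms the differences of *Irs2* were 0.10 from apoE2 to apoE3, 0.01 from apoE2 to apoE4 and -0.09 from apoE3 to apoE4, each with an SE of 0.14 on the log2 scale.

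*Irs1*, the other main adaptor of both receptors, lies at chr1:82233101-82291416 on the minus strand and followed the number closely. Its level was 60.7 ± 11.6 CPM (SD, n = 4) over the libraries of number 1 and 72.4 ± 6.93 for number 4, against 38.95 ± 4.74 for number 2 and 41.4 ± 4.86 for number 3. The ranges by group were 35.1 to 69.0 CPM in the control, 34.3 to 66.7 with apoE2, 45.5 to 71.5 with apoE3 and 38.7 to 82.4 with apoE4. Against the control the log2 fold changes were -0.13 ± 0.29, 0.11 ± 0.29 and 0.22 ± 0.29, with adjusted p-values with the number of 0.732, 0.364 and 0.297 in edgeR. A gene of the other strand, *Gm9747*, covers 30.9% of its exon length in the annotation, and whether the counting used the strand is not given in the sources used here.

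**Figure D2:**
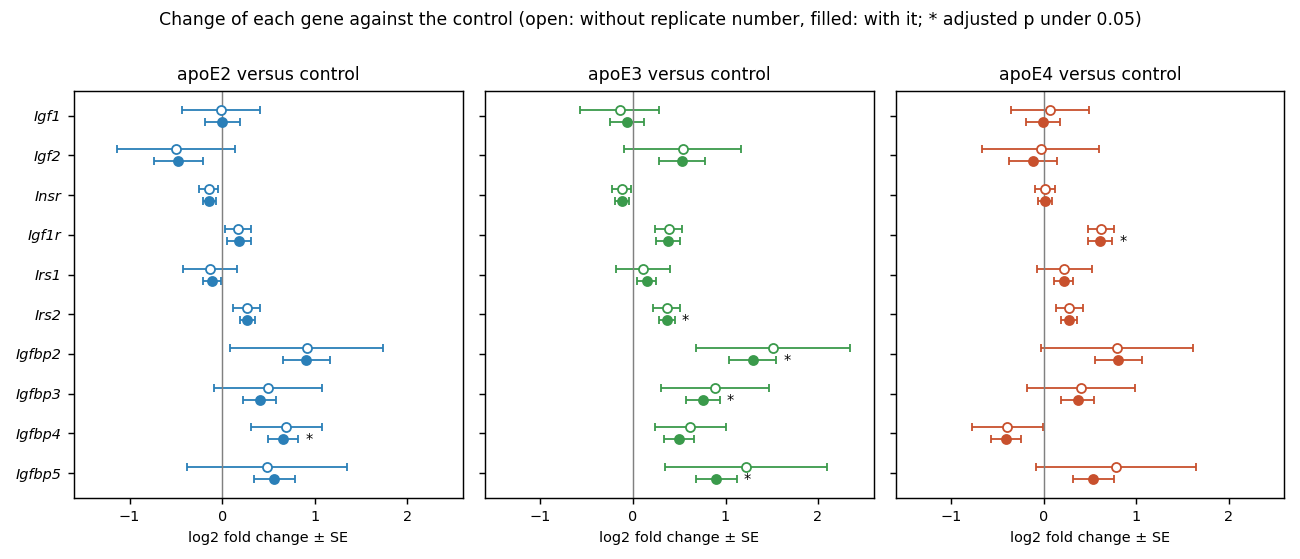
Log2 fold change of each gene against the control for apoE2, apoE3 and apoE4, with bars of 1 SE, in the fit without the replicate number (open points) and with it (filled points), and a star where the adjusted p with the number is under 0.05. The bars of *Igf1*, *Irs1*, *Igfbp2*, *Igfbp3* and *Igfbp5* shorten with the number while those of *Igf1r* hardly change, and the stars stand at *Igfbp4* for apoE2, at *Irs2*, *Igfbp2*, *Igfbp3* and *Igfbp5* for apoE3 and at *Igf1r* for apoE4.

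Upstream of the genes whose calls the text turns on, the windows from 250 bases before to 50 after a RefSeq transcription start are printed to let their base composition and short motifs be compared. RefSeq entries (GRCm38.p6) matched 9 of the 10 genes, all but *Insr*, with 13 windows. The windows of *Igf1r* and *Irs2* lie wholly outside the gene spans given above, which come from GENCODE and not from RefSeq. The matches to 4 motifs, searched on either strand, are in capitals. The TATA box was searched as TATAAA, which on the other strand reads TTTATA. The GC box was searched as GGGCGG, which on the other strand reads CCGCCC. The next was CCAAT, of the box of that name, reading ATTGG on the other strand. The last was GTAAACA, a motif that forkhead factors such as FOXO bind, reading TGTTTAC on the other strand. None of the 4 contains another. Of the 32851 RefSeq windows of this length, 13.6% hold the first, 35.7% the second, 37.4% the third and 3.65% the last.
*Igf1r*, chr7:67952007-67952306, plus strand: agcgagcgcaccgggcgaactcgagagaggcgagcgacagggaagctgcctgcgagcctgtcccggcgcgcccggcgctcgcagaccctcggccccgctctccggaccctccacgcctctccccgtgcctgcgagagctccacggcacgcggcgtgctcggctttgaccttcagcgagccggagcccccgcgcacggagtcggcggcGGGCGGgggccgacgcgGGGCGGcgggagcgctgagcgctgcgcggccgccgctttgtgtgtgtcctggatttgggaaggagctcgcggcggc
*Irs2*, chr8:11008880-11009179, minus strand: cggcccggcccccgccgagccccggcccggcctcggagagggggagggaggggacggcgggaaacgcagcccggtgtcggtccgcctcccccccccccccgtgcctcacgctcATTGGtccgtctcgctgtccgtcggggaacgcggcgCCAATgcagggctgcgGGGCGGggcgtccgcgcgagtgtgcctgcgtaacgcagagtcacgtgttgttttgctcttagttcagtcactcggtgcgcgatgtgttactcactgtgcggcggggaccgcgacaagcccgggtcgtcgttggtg
*Igfbp2*, chr1:72824230-72824529, plus strand: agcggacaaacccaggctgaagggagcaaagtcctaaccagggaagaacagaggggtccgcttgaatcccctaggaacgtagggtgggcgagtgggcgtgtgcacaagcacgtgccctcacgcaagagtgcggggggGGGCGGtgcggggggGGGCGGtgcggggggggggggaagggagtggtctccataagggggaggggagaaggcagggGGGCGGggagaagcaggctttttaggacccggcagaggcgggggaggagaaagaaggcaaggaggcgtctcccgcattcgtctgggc
*Igfbp3*, chr11:7213874-7214173, minus strand: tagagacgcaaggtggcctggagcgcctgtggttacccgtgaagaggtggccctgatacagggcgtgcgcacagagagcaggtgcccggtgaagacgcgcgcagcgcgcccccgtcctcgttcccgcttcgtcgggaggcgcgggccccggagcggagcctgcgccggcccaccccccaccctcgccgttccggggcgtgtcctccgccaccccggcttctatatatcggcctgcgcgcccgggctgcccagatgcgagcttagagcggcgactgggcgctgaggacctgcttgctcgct
*Igfbp4*, chr11:99040994-99041293, plus strand: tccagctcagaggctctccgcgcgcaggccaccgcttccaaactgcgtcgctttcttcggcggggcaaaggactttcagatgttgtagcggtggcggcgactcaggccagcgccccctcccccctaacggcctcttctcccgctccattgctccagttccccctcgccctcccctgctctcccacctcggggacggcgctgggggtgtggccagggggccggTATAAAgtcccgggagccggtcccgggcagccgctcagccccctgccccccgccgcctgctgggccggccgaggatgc
*Igfbp5*, chr1:72874816-72875115, minus strand: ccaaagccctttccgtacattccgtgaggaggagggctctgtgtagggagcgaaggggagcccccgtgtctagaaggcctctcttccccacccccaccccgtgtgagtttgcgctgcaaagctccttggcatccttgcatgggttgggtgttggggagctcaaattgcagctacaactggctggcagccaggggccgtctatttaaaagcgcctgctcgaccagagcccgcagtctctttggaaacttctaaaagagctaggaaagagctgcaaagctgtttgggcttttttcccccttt

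The windows differ in base composition and motifs. The window of *Igf1r* is 76.0% G or C, higher than or equal to 97.1% of all RefSeq windows, and holds 2 GC boxes and no TATA box. The first window of *Igfbp2* is 67.0% G or C with 3 GC boxes. Its second window, which is not printed, is 57.3% G or C and holds none of the 4 motifs. The windows of *Igfbp3* at 71.7% and of *Igfbp5* at 56.3% G or C hold none of the 4 motifs, and that of *Igfbp4* at 71.3% holds 1 TATA box and no other. The forkhead motif is in none of the 13 windows of the 9 genes. That of *Irs2* at 72.0% holds 1 GC box and 2 CCAAT boxes. Of the 4 genes that edgeR with the number called higher with apoE3, *Igfbp2* and *Irs2* thus hold GC boxes in the windows shown. *Igfbp3* and *Igfbp5* hold none of the 4 motifs. A match is a run of letters and not a site in use, and the absence of a match says only that these letters are not in this window.

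Of the binding proteins edgeR called 3 higher with apoE3 once the number was in the fit, and DESeq2 with the number also called *Igfbp4*. *Igfbp2* and *Igfbp5* had the widest ranges of the 10 genes over the libraries. *Igfbp2*, the main binding protein of developing brain and a product of glia, lies at chr1:72824503-72852474 on the plus strand, next to *Igfbp5*. It stood at 340.5, 60.2, 179 and 416 CPM in control libraries 1 to 4, at 1011, 115, 320 and 428 with apoE2, at 977, 95.8, 375 and 1400 with apoE3 and at 545, 89.95, 419 and 665.5 with apoE4. In every apoE library the level was above that of the control library of the same number, and number 2 was the lowest in each group. The highest library was 23.3 times the lowest, and the groups overlapped in every comparison.

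For *Igfbp2* the log2 fold change against the control was 1.51 ± 0.83 (SE) with apoE3, 0.91 ± 0.82 with apoE2 and 0.79 ± 0.82 with apoE4, with edgeR adjusted p-values of 0.803, 1.00 and 1.00 without the number. Over fits without 1 library these values ran from 0.95 to 1.88 with apoE3. They ran from 0.21 to 1.28 with apoE2 and from 0.46 to 1.15 with apoE4. With the number the values were 1.30 ± 0.25, 0.91 ± 0.25 and 0.81 ± 0.25, with adjusted p-values of 0.00521, 0.0899 and 0.104. The call with apoE3 held in all 16 fits that left out a library in turn, with log2 fold changes from 0.98 to 1.46. No difference between isoforms was called, with 0.39 ± 0.25 between apoE3 and apoE2 and -0.49 ± 0.25 between apoE4 and apoE3 with the number (adjusted p of 0.472 and 0.354, edgeR). Hence the data do not show that apoE3 differs from the other isoforms in its effect on *Igfbp2*.

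*Igfbp3*, the main carrier of IGFs in serum, lies at chr11:7206086-7213923 on the minus strand. It was at 197, 94.1, 92.9 and 254 CPM in control libraries 1 to 4, at 436.5, 110.2, 108.7 and 242 with apoE2, at 412, 128.5, 132 and 506 with apoE3 and at 275, 90.9, 145 and 332 with apoE4. Each apoE3 library was above the control library of its number, as were 3 of 4 with apoE2 and with apoE4. With apoE3 the log2 fold change was 0.89 ± 0.59 with an edgeR adjusted p of 0.806, and 0.76 ± 0.18 with an adjusted p of 0.0147 with the number. Without control library 1 or apoE3 library 4 the adjusted p was no longer under 0.05 and reached 0.0751.

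*Igfbp5*, a binding protein with affinity for the extracellular matrix, lies at chr1:72857932-72874884 on the minus strand, so that it and *Igfbp2* face each other end to end. It was at 78.7, 46.6, 29.25 and 183 CPM in control libraries 1 to 4, at 149, 44.6, 65.0 and 212 with apoE2, at 153, 51.9, 56.3 and 527 with apoE3 and at 143, 38.3, 46.4 and 353 with apoE4. Number 4 was the highest in every group. With apoE3 the log2 fold change was 1.23 ± 0.87 with an edgeR adjusted p of 0.806, and 0.90 ± 0.22 with an adjusted p of 0.0174 with the number. The first of these values was 0.05 without apoE3 library 4. The second stayed between 0.67 and 1.17 but missed the threshold without control library 1, 3 or 4 or apoE3 library 4, at up to 0.0843.

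Glial and fibroblast RNA varied together with these 3 genes. With apoE3, 7 of 8 astrocyte markers were higher than in the control and all 7 passed an adjusted p of 0.05 with the number, with a median log2 fold change of 0.818 over the 8. So were 8 of 8 oligodendrocyte lineage markers, of which 3 passed, at a median of 0.779, and 6 of 6 tested meningeal fibroblast markers, of which 2 passed, at a median of 0.834. Also higher were 6 of 6 markers of dividing cells, of which 1 passed, at a median of 0.705, and 3 of 4 tested markers of mural cells, of which 1 passed, at a median of 0.686. Of 8 neuronal markers 2 were higher, at a median of -0.128, and with the number 1 passed as higher and 2 as lower. Higher too were 5 of 8 microglia (median 0.445), 2 of 3 tested endothelial (0.177, 1 passing) and 4 of 5 tested choroid plexus markers (0.232, 1 passing). Among all tested genes 52.4% were higher with apoE3 and 11.7% passed with the number in either direction. The summed oligodendrocyte lineage markers were 107 to 438 CPM in the control, 120 to 825 with apoE2, 139 to 846 with apoE3 and 110 to 677 with apoE4, with *Mbp* the most abundant and none at 0. The fibroblast markers summed to 19.2 to 137 CPM in the control, 17.0 to 154 with apoE2, 19.6 to 219 with apoE3 and 21.9 to 229 with apoE4, with *Col1a2* the most abundant, *Slc22a6* at 0 in 13 libraries and *Slc6a13* at 0 in 5. Over the 16 libraries *Igfbp2* correlated with the summed astrocyte markers at a Pearson r of 0.895 and with the oligodendrocyte lineage markers at 0.950, and *Igfbp3* and *Igfbp5* correlated with the astrocyte markers at 0.744 and 0.751 and with the fibroblast markers at 0.947 and 0.888. *Igfbp3* was closest to the oligodendrocyte lineage markers, at 0.951 (*Igfbp5* 0.838), and *Igfbp5* to those of microglia, at 0.920 (*Igfbp3* 0.799). With the summed neuronal markers the r was -0.751 for *Igfbp2*, -0.911 for *Igfbp3* and -0.951 for *Igfbp5*. Of the other lists, the markers of microglia summed to at most 80.1 CPM in a library, those of endothelial cells to 1.76 to 9.21 (*Kdr* the most abundant), of mural cells to 10.4 to 28.0 (*Rgs5*) and of choroid plexus to 14.5 to 124 (*Ttr*). In these lists *Abcc9* of mural cells and *Kcnj13* of choroid plexus were at 0 in 4 libraries each, and *Tmem119* of microglia, *Cldn5* and *Cdh5* of endothelial cells, *Kcnj8* of mural cells and *Kl* of choroid plexus in 1 each. Markers of dividing cells, led by *Top2a*, summed to 9.26 to 22.4 CPM in the control, 22.7 to 32.8 with apoE2, 29.3 to 46.4 with apoE3 and 14.1 to 36.8 with apoE4. The correlations are descriptions over libraries that share numbers and media, and the part of these cells in the levels was not tested.

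**Figure D3:**
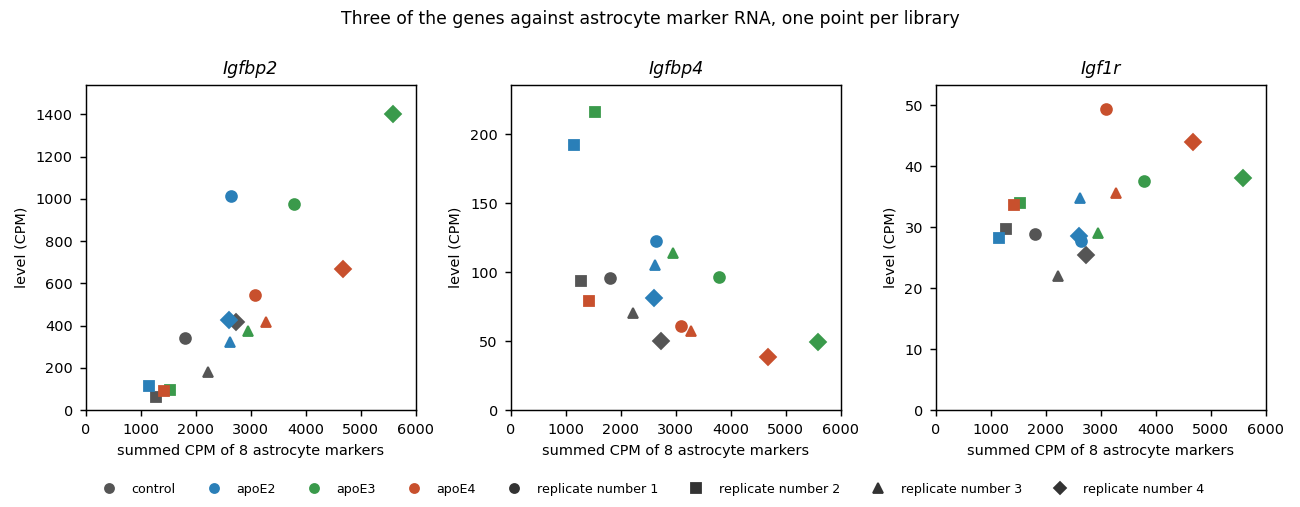
Level in CPM of *Igfbp2*, *Igfbp4* and *Igf1r* against the summed CPM of 8 astrocyte markers, with 1 point per library, colored by group and shaped by replicate number. *Igfbp2* is highest, at 1400 CPM, in the library with the most astrocyte marker RNA, apoE3 number 4, whereas *Igfbp4* is highest in the apoE3 and apoE2 libraries of number 2, where astrocyte marker RNA is low.

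*Igfbp4* was the member that edgeR called between isoforms, and unlike the other binding proteins its value with apoE4 lay below that of the control. It encodes a binding protein that mostly inhibits IGF action, and it lies at chr11:99041244-99054392 on the plus strand. Its level was 95.8, 93.5, 70.15 and 50.3 CPM in control libraries 1 to 4, 123, 192, 105 and 81.1 with apoE2, 96.9, 216, 114 and 49.1 with apoE3 and 60.9, 79.2, 57.6 and 38.4 with apoE4. Every apoE4 library was below the control, apoE2 and apoE3 libraries of its number, and all apoE4 libraries lay below all apoE2 libraries, as was so for 1.50% of all tested genes. In TPM these ranges overlapped, at 24.3 to 61.9 with apoE4 and 50.1 to 120.4 with apoE2. The means were 77.5 ± 21.5 CPM (SD, n = 4) in the control, 125 ± 47.7 with apoE2, 119 ± 70.3 with apoE3 and 59.0 ± 16.7 with apoE4.

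Between apoE4 and apoE2 the log2 fold change of *Igfbp4* was -1.09 ± 0.39 (SE), with an unadjusted p of 0.0136 and an adjusted p of 0.586 in edgeR. With the number it was -1.06 ± 0.16 with an adjusted p of 0.00145, and the call held in all 16 fits that left out a library, at -1.12 to -0.99. Between apoE4 and apoE3 it was -1.01 ± 0.39 (adjusted p of 0.949) and -0.90 ± 0.16 with the number (adjusted p of 0.00861, edgeR), a call lost without apoE3 library 3 at an adjusted p of 0.0529. Over fits without 1 library the value without the number ran from -1.28 to -0.55. Against the control, *Igfbp4* was higher with apoE2, by 0.69 ± 0.38 without and 0.66 ± 0.16 with the number (adjusted p of 1.00 and 0.0491, edgeR). This call lay at the threshold and was kept in 2 of the 16 fits that left out a library, those without apoE3 library 2 or 4. Without the number, the value with apoE2 ran from 0.40 to 0.85 over fits that left out a library. With apoE3 the value was 0.50 ± 0.16 with the number (adjusted p of 0.0550) and with apoE4 -0.40 ± 0.16 (adjusted p of 0.214, edgeR), neither of them a call in edgeR, while DESeq2 with the number called apoE3, at 0.48 with an adjusted p of 0.0416. ApoE3 and apoE2 differed by -0.16 ± 0.16 with the number (adjusted p of 0.664, edgeR).

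*Igfbp4* ran against the glial markers across libraries, with a Pearson r of -0.671 with the summed astrocyte markers and 0.585 with the neuronal markers. The neuronal markers did not separate the isoforms in sum, at 4969 to 7678 CPM with apoE2, 3297 to 7105 with apoE3 and 3646 to 7181 with apoE4, against 4485 to 7142 in the control. Astrocyte marker RNA was higher in the apoE4 library than in the apoE2 library of the same number in all 4 numbers. The part of the cell mixture in the level of *Igfbp4* was not tested.

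In the sum of the 4 binding proteins, *Igfbp2* made up most of the RNA in every library but those of number 2. Its share of their summed TPM was 63.9 to 77.2% in numbers 1, 3 and 4 and 34.5 to 47.7% in number 2. *Igfbp4* made up 23.1, 29.3, 32.5 and 17.6% of the sum in the control, apoE2, apoE3 and apoE4 libraries of number 2, and between 1.09 and 10.8% in the other libraries. The summed level was 580 ± 269 TPM (SD, n = 4) in the control, 902 ± 468 with apoE2, 1246 ± 871 with apoE3 and 814 ± 488 with apoE4, and the 4 ranges overlapped.

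**Figure D4:**
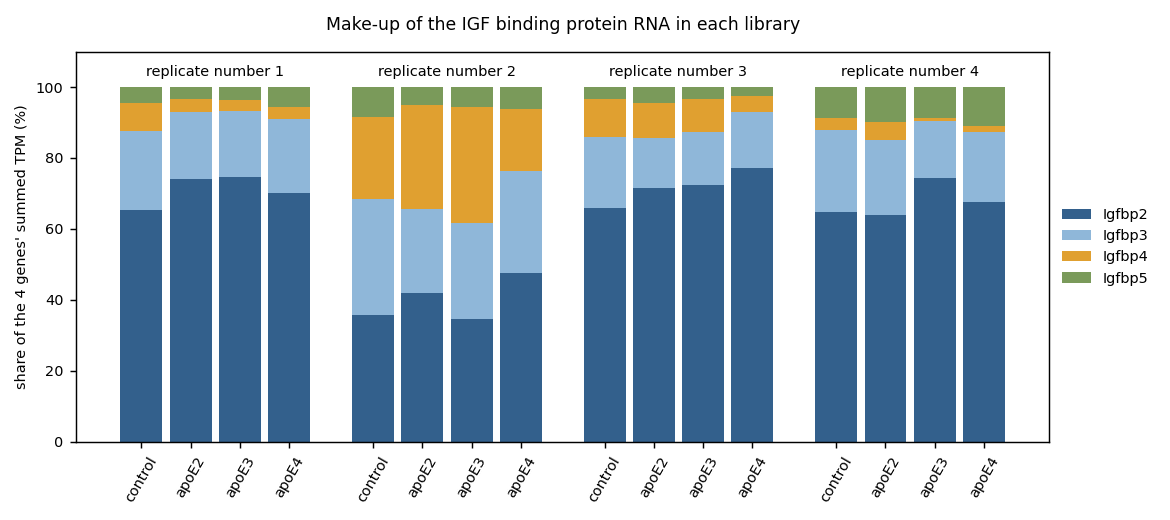
Share in percent of *Igfbp2*, *Igfbp3*, *Igfbp4* and *Igfbp5* in their summed TPM, with 1 bar per library, grouped by replicate number and within it by medium. *Igfbp2* holds 34.5 to 47.7% in number 2 and 63.9 to 77.2% in the others, and the share of *Igfbp4* in number 2 is lowest with apoE4, at 17.6%.

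Counted together, the 10 genes gave no call by edgeR in any of the 6 comparisons without the number, and 6 of them were called in 1 comparison or more with it. Over all tested genes edgeR without the number called 0.00% with apoE2, 0.00587% with apoE3 and 0.194% with apoE4 against the control, 0.00% between apoE3 and apoE2, 0.252% between apoE4 and apoE2 and 0.147% between apoE4 and apoE3. An unadjusted p under 0.05 was reached by 0 of the 10 with apoE2 against 2.79% of all genes, by 2 with apoE3, *Igf1r* and *Irs2*, against 6.43%, and by 1 with apoE4, *Igf1r*, against 3.30%. It was reached by 0 between apoE3 and apoE2 against 2.28%, by 2 between apoE4 and apoE2 against 5.34% and by 1 between apoE4 and apoE3 against 4.70%. With the number in edgeR, 1 of 10 was called with apoE2 against 1.73% of all genes, 4 with apoE3 against 11.7% and 1 with apoE4 against 3.30%. Between isoforms, 0 were called between apoE3 and apoE2 against 1.31%, 1 between apoE4 and apoE2 against 4.44% and 1 between apoE4 and apoE3 against 1.76%. DESeq2 with the number called the same genes in each of these comparisons and 3 more, *Igfbp4* with apoE3, *Igf2* between apoE3 and apoE2 and *Igf1r* between apoE4 and apoE2. Its counts were 1 of 10 with apoE2 against 4.61% of genes, 5 with apoE3 against 15.8%, 1 with apoE4 against 6.12%, 1 between apoE3 and apoE2 against 4.72%, 2 between apoE4 and apoE2 against 8.07% and 1 between apoE4 and apoE3 against 4.67%. A test of any difference among the 4 groups called 0 members against 0.229% of genes, and with the number 4, which were *Igf1r*, *Irs2*, *Igfbp2* and *Igfbp4*, against 10.7%. The study itself asked for a difference of 2-fold or more and an unadjusted p below 0.05. In edgeR without the number no member met this criterion, against 1.15% of genes for apoE4, 1.96% for apoE3 and 0.722% for apoE2. With the number 1 did, *Igfbp2* with apoE3, against 4.77% of genes.

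Against the control, the 10 genes had a median log2 fold change of 0.462 for apoE3, where the median of all tested genes was 0.015. It was 0.216 for apoE2 beside 0.011, and 0.25 for apoE4 beside 0.002. Higher than in the control by this value, called or not, were 6 of the 10 for apoE2 and 8 each for apoE3 and apoE4, beside 52.3, 52.4 and 50.4% of all tested genes. The medians of the astrocyte and oligodendrocyte lineage markers were 0.818 and 0.779 for apoE3 and 0.717 and 0.467 for apoE4, and their part in the median of the 10 was not tested. The 3 comparisons share the control libraries, so that these counts are not independent of each other. The 10 genes were chosen with earlier results of these data known, so that the medians and counts describe the list and test nothing.

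The rest of the pathway was read from a list of 67 genes in 6 roles, of which 62 were tested and *Ins1*, *Ins2*, *Insrr*, *Igfbp1* and *Igfals* had too few counts. Without the number edgeR called no gene of the list against the control, where 2, 5 and 4 of the 62 had an unadjusted p under 0.05 with apoE2, apoE3 and apoE4, to be read beside the 2.79, 6.43 and 3.30% of all genes, and DESeq2 called 1, *Ccng2* with apoE3. With the number edgeR called 11 genes, 4 of the 62 with apoE2, 10 with apoE3 and 4 with apoE4, to be read beside the shares of all genes given above. The median log2 fold change of the 62 was -0.032, 0.03 and 0.058, close to that of all genes. Of the mTOR group edgeR with the number called *Eif4ebp1* against the control, which encodes a repressor of translation that mTOR inactivates, and between isoforms *Rptor*, which encodes a scaffold of an mTOR complex and was higher with apoE4 than with apoE2 by 0.33 (adjusted p of 0.0423). The values of the pathway genes below are from the edgeR fit with the number unless said otherwise, and without it edgeR called none of the 62 in any of the 6 comparisons.

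Among adaptors and brakes that act next to the receptors, *Socs3* was the gene called with all 3 isoforms. It encodes a suppressor of cytokine signaling that also binds the insulin receptor and its adaptors. Its level was 6.86, 3.02, 4.36 and 19.3 CPM in control libraries 1 to 4, 16.8, 5.69, 10.9 and 23.8 with apoE2, 36.0, 16.3, 20.6 and 45.9 with apoE3 and 20.3, 4.53, 8.58 and 32.2 with apoE4. Each apoE library was above the control library of its number. In the fit with the number its log2 fold change was 2.05 for apoE3, 0.92 for apoE2 and 0.96 for apoE4, with adjusted p-values of 6.57e-05, 0.0351 and 0.0160 in edgeR. Without the number its value for apoE3 was 1.83 ± 0.67 with an adjusted p of 0.745 in edgeR. ApoE3 exceeded apoE2 by 1.13 (adjusted p of 0.0140) and apoE4 was lower than apoE3, with a log2 fold change of -1.09 (adjusted p of 0.00881, edgeR). *Ptpn1*, the phosphatase that removes phosphate from the insulin receptor, was higher with apoE3 by 0.32 (adjusted p of 0.0206), and the docking protein gene *Gab1* was higher by 0.64 with apoE3 and 0.64 with apoE4 (adjusted p of 0.0160 and 0.0319, edgeR with the number).

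Other calls with the number lay apart from each other in role. *Igfbp7*, a secreted relative of the binding proteins, was higher by 0.94 with apoE2 and 0.85 with apoE3 (adjusted p of 0.0350 and 0.0161). The lipid phosphatase gene *Inppl1* was higher by 0.78 with apoE3 and 0.64 with apoE4 (adjusted p of 0.00524 and 0.0319), *Eif4ebp1* by 0.87 with apoE3 (adjusted p of 0.0259) and *Tbc1d4*, whose protein controls the transport of glucose carriers, by 0.78 with apoE3 (adjusted p of 0.00503). *Socs3*, *Gab1*, *Inppl1* and *Igfbp7* were lowest in number 2 in each group, as were the summed markers of astrocytes and of the oligodendrocyte lineage, and the part of these cells in the calls was not tested.

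Of 10 genes known as FOXO targets, edgeR with the number called 2 with apoE2, 3 with apoE3 and 1 with apoE4, against 1.73, 11.7 and 3.30% of all genes, and in unlike directions. *Ccng2*, which encodes an atypical cyclin, stood at 70.5 ± 3.67 CPM (SD, n = 4) in the control and 52.8 ± 4.94 with apoE3. Its log2 fold change with apoE3 was -0.42 ± 0.09, with an edgeR adjusted p of 0.335 without and 0.00683 with the number. *Pik3ip1*, an inhibitor of PI3K, was lower with apoE2 by a log2 of -0.37 (adjusted p of 0.0358). *Bcl6*, a transcriptional repressor, was higher by 0.68 with apoE2 and 0.57 with apoE3 (adjusted p of 0.0115 and 0.00771) while without the number its value with apoE4 was 0.01. Between apoE4 and apoE2 its log2 fold change was -0.68 (adjusted p of 0.00467). *Sesn3*, whose protein restrains mTOR, was higher by 0.41 with apoE3 and 0.49 with apoE4 (adjusted p of 0.0191 and 0.0156, edgeR with the number).

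**Figure D5:**
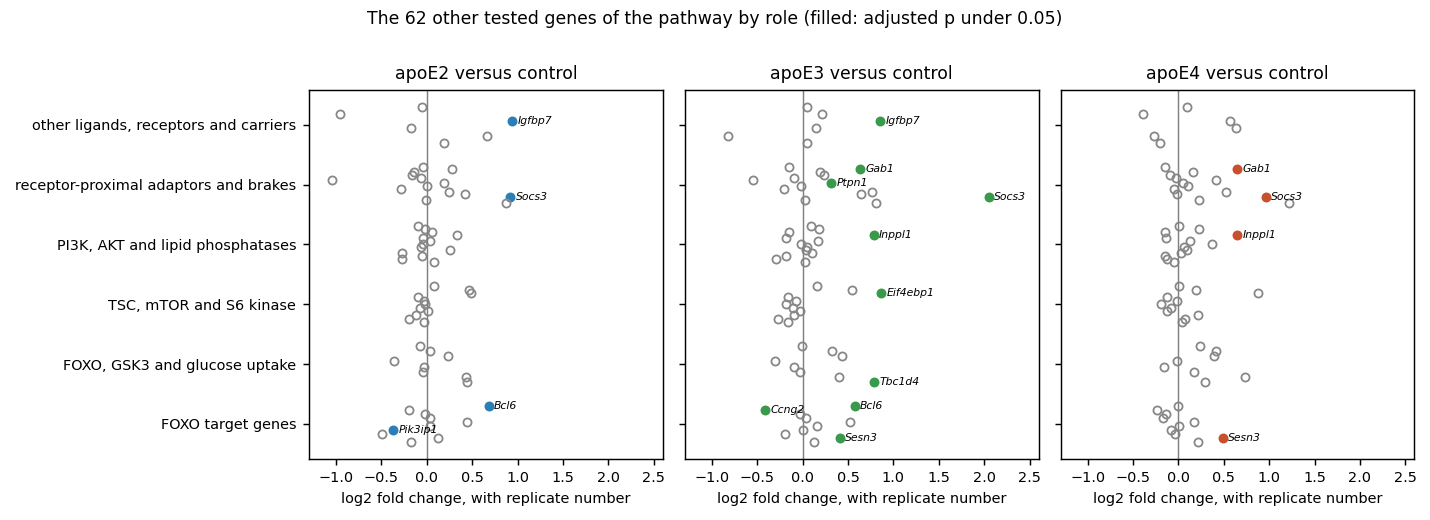
Log2 fold change against the control, in the fit with the replicate number, of the 62 other tested pathway genes, by role, with 1 point per gene and filled, named points where the adjusted p is under 0.05. Of these genes 4 are filled with apoE2, 10 with apoE3 and 4 with apoE4, and *Socs3* with apoE3 lies farthest from 0 at 2.05.

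The genes whose log2 CPM followed each member most closely over the 16 libraries were named by Pearson correlation, as a description that carries the shared numbers and media with it. *Igfbp2* was closest to *Nes*, the intermediate filament gene of neural progenitors and reactive astrocytes, at 0.987, then to *Serpine2* at 0.986 and *Hbegf* at 0.985. *Igfbp3* was closest to *Perp* at 0.988, *Rcn3* and *Hebp2*, and *Igfbp5* to *Nedd4* at 0.981, *Scube3* and *Suox*. *Igf1* was closest to *Echdc2* at 0.963, *Rgs1* and *Rbms3*, *Igf2* to *Arhgef18* at 0.933, *Plxdc2* and *Aifm2*, and *Irs1* to *Kif26b* at 0.966, *Celsr1* and *Uhrf1bp1*. The genes less tied to the number had looser companions. *Igf1r* was closest to *Lrp6*, a Wnt co-receptor, at 0.904, *Irs2* to *Trp53inp2* at 0.921, *Farp2* and *Dst*, *Insr* to *Hlf* at 0.889, *Klf12* and *Fam214a*, and *Igfbp4* to *Scly* at 0.884, *Eif5a2* and *Cables2*.

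Among the members themselves, *Igfbp3* and *Igfbp5* were the closest pair, at a Pearson r of 0.906, followed by *Igfbp2* and *Igfbp3* at 0.890. *Igfbp4* had a negative r with each of the other members but *Irs2*, from -0.602 with *Irs1* to -0.194 with *Insr*, and 0.014 with *Irs2*.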

How the data were processed

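RNA of mouse primary hippocampal neurons was sequenced on 16 libraries, 4 for each of the control, apoE2, apoE3 and apoE4 groups, which the sample labels name. The authors removed ribosomal RNA before sequencing and aligned with STAR to the mouse genome mm10. What they deposited for each library are whole-number HTSeq counts for every gene symbol, with no normalization. The annotation release and the strand setting are not given in the sources used here. The rows holding HTSeq's totals of unassigned reads entered neither library sizes nor tests. The study's methods describe independent neuronal cultures as replicates.

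The counts were fitted with edgeR 4.0.16 in R 4.3.3 (TMM scaling, filterByExpr with a minimum count of 10 and a minimum total of 15, group coefficients over all 16 libraries, quasi-likelihood test), and p-values were adjusted by Benjamini-Hochberg over 17038 genes in each comparison. CPM uses the TMM-scaled library size, and log2 values for correlations had a prior count of 2. TPM used exon lengths of GENCODE M21, which 96.0% of the symbols matched. The script was tested on simulated data.

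Libraries of the same replicate number deviated together from their group means (r = 0.362 to 0.831 over the pairs of the same number, against -0.736 to 0.569 for different numbers), so the numbers were taken to pair the libraries, although the labels name no shared culture. With the number as a block the common dispersion was 0.0178, against 0.132 without. The fit without the block was set as the reported one because the study's methods name none. Alternatives were the block, DESeq2 1.42.0 with and without it, DESeq2 size factors, no low-count filter, a filter of 1 CPM in 8 libraries, only the groups compared, no minimum fold, and each library left out. Leaving out a library in the blocked fit, and the size factors and filters in it, were chosen after seeing the data.

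The 10 genes and the lists of pathway genes and cell type markers were chosen with earlier results of these data known. By the rule for naming genes the text names all 10 members, up to 12 pathway genes called against the control with or without the block, the 3 most abundant of a role group where levels are given, the 3 genes most correlated with each member, and of each cell type the most abundant marker and those at 0. A few genes that this rule names are not reported here.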

Additional observations from a re-analysis of the deposited data

Results flagged for a closer look

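In groups of 4 libraries, 2 of 40 groups examined (10 genes in 4 media) held a library far from the other 3 by Dixon's test at 95%, where chance gives about 1 in 20. *Insr* in apoE4 library 1 stood at 62.7 CPM, against 48.8 to 50.9 in the other 3 apoE4 libraries. *Igf1r* in apoE2 library 3 stood at 34.7 CPM, against 27.8 to 28.6 in the other 3 apoE2 libraries.

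In 2 genes, the media of different isoforms lay on opposite sides of the control in all 4 same-number pairs. The genes were picked by this pattern, and the share of all tested genes that show it was not computed. *Igf2* was lower than the control with apoE2 and higher with apoE3 in each number, although for apoE3 number 1 by as little as 3.961 against 3.955 CPM. The test of the difference between apoE3 and apoE2 gave a log2 fold change of 1.04 with an edgeR adjusted p of 1.00 (0.0728 with the replicate number, and 0.0139 in DESeq2 with it), on 24 to 117 counts a library. *Igfbp4* was higher than the control with apoE2 and lower with apoE4 in each number. The difference between apoE4 and apoE2 was a log2 fold change of -1.09 with an edgeR adjusted p of 0.586 (0.00145 with the replicate number).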

How the results depend on the processing

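The replicate number as a block decided the calls. Without it edgeR called 0 members in each comparison and in the test of any difference, and 0 pathway genes. With the replicate block it called 1 with apoE2, 4 with apoE3, 1 with apoE4, 1 between apoE4 and apoE2 and 1 between apoE4 and apoE3, 4 in the test of any difference and 11 pathway genes, and by the criterion of the study 1 with apoE3. DESeq2 called 1 with apoE4, 1 in the test of any difference and 1 pathway gene without the block. DESeq2 with the replicate block called 1, 5 and 1 against the control, 1 between apoE3 and apoE2, 2 between apoE4 and apoE2 and 1 between apoE4 and apoE3, 7 in the test of any difference, 18 pathway genes and, by the criterion, 1 with apoE3. For the DESeq2 tests of any difference and the DESeq2 criterion the share of all genes was not computed, so these counts have no background. The 18 are to be read beside the 4.61, 15.8 and 6.12% of genes called against the control in the same setting. With no minimum fold the criterion held 2 members with apoE3 and 1 with apoE4, and over fits that left out a library it held 0 to 1 with apoE3, the 1 being *Igfbp2* without apoE3 library 2. DESeq2 size factors, no low-count filter, the stricter filter and a fit of only the groups compared left the counts of calls at 0. With the block, the call of *Igfbp4* with apoE2 was lost with DESeq2 size factors (adjusted p of 0.0603) and with the stricter filter (adjusted p of 0.0616). The cause of these changes was not tested. The other 7 blocked calls held under both, and all 8 held under DESeq2 with the block (adjusted p between 2.06e-07 and 0.00941).

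Signs turned in the following values, none of them called. For *Igf1* the log2 fold change with apoE2 was 0.0031 with the replicate block, and with apoE4 it was -0.0068 with the block and -0.0186 with DESeq2 and the block. Over fits without 1 library, *Igf1* ran from -0.19 to 0.30 with apoE2, from -0.30 to 0.17 with apoE3 and from -0.48 to 0.38 with apoE4. *Igf2* ran from -0.0514 to 0.802 with apoE3 and from -0.64 to 0.26 with apoE4 against the control, from -0.14 to 0.83 between apoE4 and apoE2 and from -1.18 to 0.0064 between apoE4 and apoE3. Against the control *Igfbp3* ran from -0.0520 to 0.812 with apoE2, *Igfbp5* from -0.16 to 1.50 with apoE4, *Insr* from -0.0751 to 0.0667 with apoE4 and *Irs1* from -0.357 to 0.0455 with apoE2 and from -0.0368 to 0.285 with apoE3, and *Igfbp4* ran from -0.53 to 0.22 between apoE3 and apoE2. *Igf1r* with apoE4 stayed between 0.51 and 0.70. Over all tested genes, edgeR called 0, 1 and 33 with apoE2, apoE3 and apoE4 against the control, 0 between apoE3 and apoE2, 43 between apoE4 and apoE2 and 25 between apoE4 and apoE3. In the same order DESeq2 called 29, 60, 91, 9, 163 and 69, the replicate block 294, 1990, 563, 224, 757 and 300, DESeq2 with the block 709, 2687, 962, 726, 1242 and 703, and a fit of only the groups compared 0, 0, 0, 0, 3 and 1. Without a low-count filter 16 were called between apoE4 and apoE3. On TPM, the ratio of apoE3 to control means was 1.15 for *Igf1r*, 1.14 for *Irs2* and 0.811 for *Insr*, against 1.31, 1.29 and 0.919 on CPM. Depth limited *Igf2* most, at 24 to 117 counts a library.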
